A study of Mus musculus with 4 samples.

Results

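The pericentral zone of the liver was compared between mice given carbon tetrachloride (CCl4) and a healthy mouse given olive oil. Transcripts had been captured on an array of barcoded spots (Visium) in formalin-fixed, paraffin-embedded sections, and each spot covers several cells. Among spots with at least 2000 UMIs (unique molecular identifiers, which count captured molecules), a zone score was taken as the log2 ratio of Cyp2e1 to Cyp2f2 UMIs, each plus 1. The spots of each section were split into 3 equal parts by this score, called its pericentral, middle and periportal zone, and the UMIs of each zone were summed. The pericentral zone held 1372 spots in fibrotic replicate 1, 858 in fibrotic replicate 2 and 1021 in the healthy section, in all 3251 of the 9756 spots with enough UMIs in these sections and of the 13640 spots in the whole series. The spots were thus chosen by their measured Cyp2e1 and Cyp2f2 UMIs, and neither gene is a result here.

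The fibrotic sections (n = 2) and the healthy section (n = 1) each came from a separate mouse of genotype HK2fl/fl, a littermate without Cre. The labels call the mice males of 5 months, and the protocol gives every mouse tamoxifen at 75 mg/kg for 5 days and then a wait of 2 weeks. CCl4 was injected at 1 µL/g 2 times a week, for 6 weeks in the design text and for 4 or 6 weeks in the sample protocol. A further CCl4 section (n = 1) came from a PDGFRBcreERT2/Hk2fl/fl mouse, in which a Cre under the Pdgfrb promoter is meant to delete Hk2 in stellate cells and other Pdgfrb-expressing cells. It is used here only as an alternative.

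Liver lobules are zoned along the blood flow from portal tracts to central veins. Hepatocytes around the central vein, under Wnt signals from its endothelium, carry out drug oxidation, bile acid synthesis and the capture of ammonia, while periportal hepatocytes make urea and glucose. CCl4 is turned into a toxic radical by the pericentral P450 enzyme CYP2E1, so the injury falls first on the cells around central veins, and hepatic stellate cells and macrophages gather there as scar forms.

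The zone label held on genes the score did not use. Pericentral landmarks were higher in the pericentral than in the periportal zone for 22 of 23 genes in fibrotic replicate 1, 21 of 23 in fibrotic replicate 2 and 23 of 23 in the healthy section. Periportal landmarks were higher there for 1, 0 and 1 of 23 genes in the same order. The separation of pericentral landmarks was smaller after CCl4. Their median log2 ratio of pericentral to periportal level was 1.16 and 1.44 in the fibrotic sections, against 1.63 in the healthy one. Car3 stood at -0.26 in fibrotic replicate 1 and Slc22a3 at -0.41 in fibrotic replicate 2. For periportal landmarks the medians were -1.085, -1.366 and -1.102. The part of these differences in later results was not tested. Glul, the usual marker of the innermost pericentral cells, was not analysed here. The score itself differed between sections: its median in the pericentral zone was 2.84 and 3.39 in the fibrotic sections, against 5.16 in the healthy section. The lowest score inside it was 2.19, 2.50 and 4.35, and the spots just outside it had the same scores, so tied spots lie on both sides. Of all fibrotic spots, 2.43% and 7.03% passed the healthy section's limit. The zones are therefore ranks within a section, not spots of equal score.

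Depth in the pericentral zone came to 25544560 and 12352527 UMIs in the fibrotic sections, against 14562757 in the healthy section, with medians of 17818, 13305 and 12588 UMIs per spot. In the periportal zone these medians were 12077.5, 13584.5 and 20363. The healthy section was thus deeper periportally, fibrotic replicate 1 deeper pericentrally and fibrotic replicate 2 nearly even. The part of depth in differences between the zones was not tested. Pairs of the 3 sections share 2192 to 2816 spot barcodes, which mark positions of the array and not cells. Fibrotic replicate 1 goes against its label: the Y-linked Eif2s3y had 14 UMIs there, against 809 in fibrotic replicate 2 and 1048 in the healthy section, and Ddx3y had 6, against 657 and 795. Counts of pericentral calls are therefore also given with the Hk2-deleted section in place of fibrotic replicate 1, called the replacement fit; it and fibrotic replicate 2 both have Y-linked transcripts. Hk2 transcripts were still present in the pericentral zone of the Hk2-deleted section, at 4.44 normalised CPM (counts scaled to a common library size with edgeR's TMM factors).

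Collagen-rich spots lay mainly in the pericentral zone after CCl4. Spots in each section's top 10% by the share of UMIs from 3 fibrillar collagen genes (Col1a1, Col1a2, Col3a1) fell into it for 71.4% and 71.7% in the fibrotic sections, against 31.7% in the healthy section. The periportal zone held 4.61% and 3.10% of them in the fibrotic sections, against 31.0% in the healthy one. In the maps, pericentral spots formed patches, since 57.8%, 60.7% and 60.5% of their neighbours were pericentral too.

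**Figure D1:**
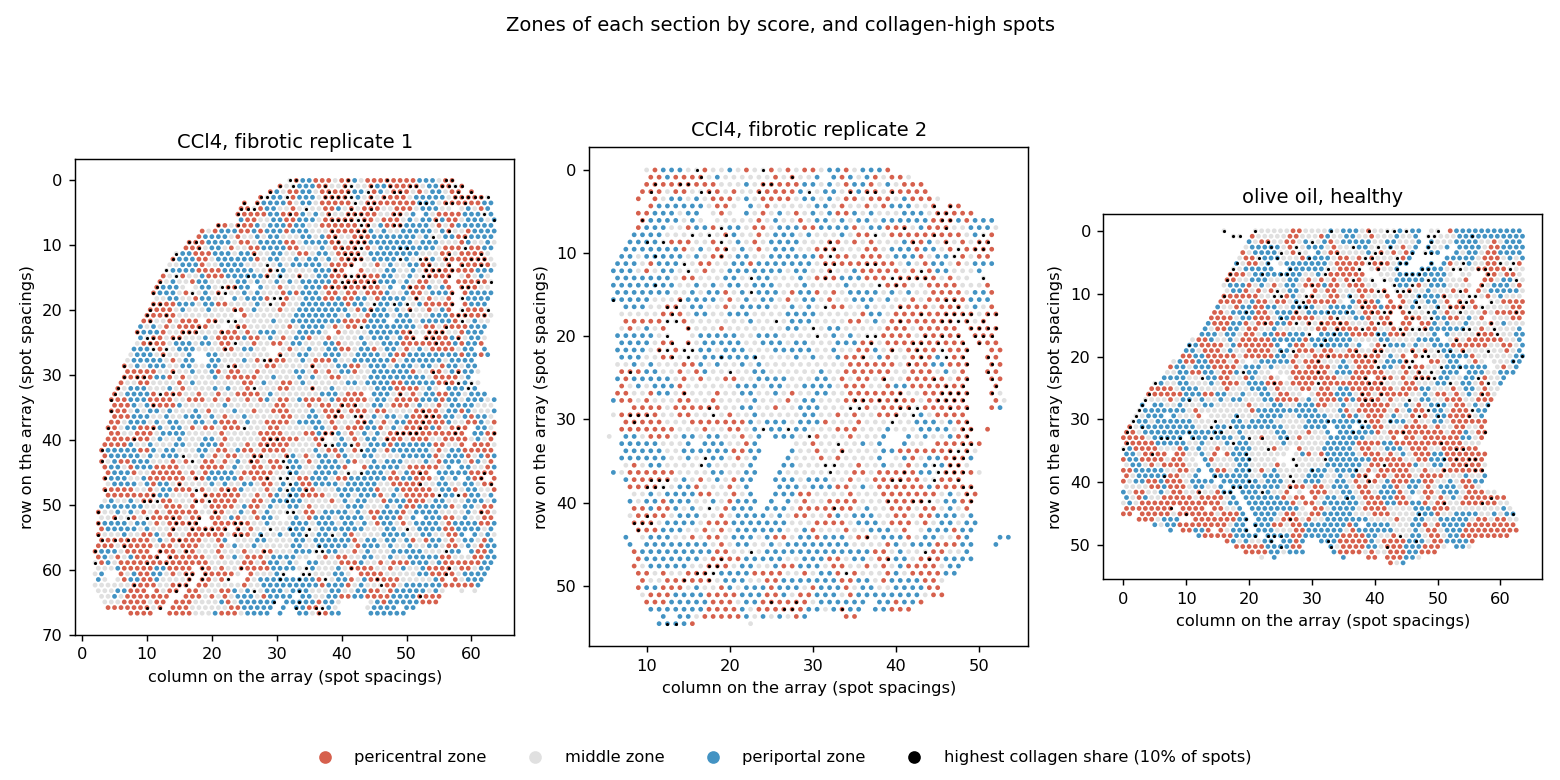
Position of every spot with at least 2000 UMIs in fibrotic replicate 1, fibrotic replicate 2 and the healthy section, in spot spacings along both axes. Colours give the zone by score and black points the 10% of spots with the highest collagen share, of which 71.4%, 71.7% and 31.7% lie in the pericentral zone.

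CCl4 changed a broad set of genes measured in the pericentral zone. Of 12887 genes tested, 2059 (16.0%) rose and 1228 (9.53%) fell at an adjusted p under 0.05 (edgeR quasi-likelihood test with Benjamini-Hochberg adjustment). The middle zone had 1093 (8.46%) higher and 453 (3.51%) lower, and the periportal zone had 391 (3.05%) higher and 254 (1.98%) lower of 12836, or 645 (5.02%) in either direction against 3287 (25.5%) pericentrally. Each zone was fitted on its own, so a count of calls depends on the precision in that zone as well as on the size of the changes. Of the pericentral calls, 363 higher and 217 lower were also called in the periportal zone. A term for zone by treatment compared the CCl4 change of the pericentral zone with that of the periportal zone of the same sections, and 1167 genes (8.89%) had a more positive and 1437 (10.9%) a more negative change pericentrally, together 2604 (19.8%) of the 13132 tested. Among the 2059 genes that rose, 918 had a called positive term, and among the 1228 that fell, 546 had a called negative one.

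These counts rest on 1 healthy section, assumed to vary like the fibrotic ones, with 1 residual degree of freedom. In the pericentral fit the variance shared across genes had a weight of 20.6 prior degrees of freedom. The SEs and adjusted p-values thus rest mainly on that shared variance and are not a measured spread between mice. The replacement fit called 1695 higher and 1083 lower, of which 1627 and 975 were shared, and its zone term was positive for 1252 and negative for 1091 genes. Without collagen-high spots the counts were 1601 and 844. Higher genes made up 62.6% of the calls, but 90.8% when each spot had equal weight, a setting that put the median of all genes at 0.33 on the log2 scale instead of 0.01. DESeq2 called 1020 higher and 530 lower. A summed level cannot tell fewer cells of a type from less RNA per cell.

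The largest increases came from genes of neutrophil granules, macrophages and scar matrix. Camp (cathelicidin, an antimicrobial peptide of neutrophil granules) stood at 48.6 and 85.3 normalised CPM in the fibrotic sections, with 0 UMIs in the healthy section. That is at least 281-fold higher, taking 3 counts as the floor of the healthy pericentral zone (adjusted p = 1.1e-10, edgeR). Elane, neutrophil elastase, stood at 10.6 and 9.42 in the fibrotic sections, also with 0 healthy UMIs, and was at least 41.9-fold higher. Both granule genes lay far above the healthy floor in each fibrotic section. Ltf (lactoferrin) had 33.4 and 78.3 in the fibrotic sections, against 0.0794 in the healthy one (1 UMI), a ratio of 592 with an exact 95% counting interval of 106 to 23396. Ngp, another granule protein, had 93.9 and 192 against 0.556, a log2 change of 8.02 ± 0.52 (SE). Retnlg, a resistin-like gene expressed in neutrophils, had 13.6 and 41.1 against 0.476, a change of 5.82 ± 0.64. Every one of these genes was also called higher in the periportal zone, and none had a called zone term.

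Gpnmb, a glycoprotein found in macrophage lysosomes, stood at 125 and 137 normalised CPM in the fibrotic sections, against 0.238 in the healthy section (3 UMIs), a ratio of 539 (184 to 2615). Mmp12, the macrophage elastase, stood at 64.5 and 22.9 against 0.635, a log2 change of 6.14 ± 0.58. Mmp7 (matrilysin, a matrix protease) stood at 12.9 and 7.55 against 0.0794 (1 UMI), a ratio of 142 (25.4 to 5621). Among the 12 largest increases, the 10 genes found by symbol in RefSeq's table of promoters (build GRCm38.p6, 250 bases before to 50 after the start) were searched for TGANTCA, letters known from AP-1 sites, on both strands. At least 1 window held it for 3, Gpnmb, Mmp12 and Mmp7, against 8.97% of all 27025 genes of the table, and for 0 of 9 matched genes among the 12 largest decreases. A match describes letters and is not evidence of binding. These 3 windows are shown because they hold the match, on the plus strand with the match in capitals. The Gpnmb window is chr6:49036268-49036567, with its match 9 bases after the start; those of Mmp12 (chr9:7347124-7347423) and Mmp7 (chr9:7691840-7692139) have it 44 and 63 bases before the start.
Gpnmb: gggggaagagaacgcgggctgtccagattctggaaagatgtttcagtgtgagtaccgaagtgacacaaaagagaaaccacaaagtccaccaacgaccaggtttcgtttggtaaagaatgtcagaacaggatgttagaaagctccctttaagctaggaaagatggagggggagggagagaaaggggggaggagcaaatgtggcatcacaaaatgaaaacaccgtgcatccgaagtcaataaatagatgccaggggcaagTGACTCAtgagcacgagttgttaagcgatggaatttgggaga
Mmp12: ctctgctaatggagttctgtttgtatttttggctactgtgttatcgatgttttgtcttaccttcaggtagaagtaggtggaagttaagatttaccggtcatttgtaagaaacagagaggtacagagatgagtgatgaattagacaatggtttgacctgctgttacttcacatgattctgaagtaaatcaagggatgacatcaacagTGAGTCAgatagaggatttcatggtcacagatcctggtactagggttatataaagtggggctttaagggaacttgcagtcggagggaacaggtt
Mmp7: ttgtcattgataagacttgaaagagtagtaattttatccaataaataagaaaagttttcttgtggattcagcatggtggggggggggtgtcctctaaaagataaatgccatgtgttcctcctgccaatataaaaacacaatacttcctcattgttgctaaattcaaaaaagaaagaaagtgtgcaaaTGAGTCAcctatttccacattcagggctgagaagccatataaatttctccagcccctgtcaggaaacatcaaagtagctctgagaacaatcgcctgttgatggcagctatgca

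The other genes among the largest increases belong to matrix, plasma cells and signalling. Col1a1 (the main chain of type I collagen) stood at 465 and 246 normalised CPM in the fibrotic sections, against 7.70 in the healthy section, a log2 change of 5.56 ± 0.43 (adjusted p = 6.5e-09). Ltbp2, a microfibril-associated protein, stood at 19.4 and 7.17 against 0.238 (3 UMIs), a ratio of 66.0 (22.5 to 321). Ighg2c, an immunoglobulin heavy chain of plasma cells, stood at 190 and 83.9 against 2.78, a change of 5.66 ± 0.45. Hpca, a neuronal calcium sensor, stood at 11.7 and 8.44 against 0.238 (3 UMIs), a ratio of 44.9 (15.3 to 218). In all 12 genes the fibrotic sections lay above the healthy one without overlap, as the naming rule required. Of these 12, Col1a1 and Ighg2c had called zone terms (1.79 ± 0.19 and 1.46 ± 0.41), so their increase was larger pericentrally.

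**Figure D2:**
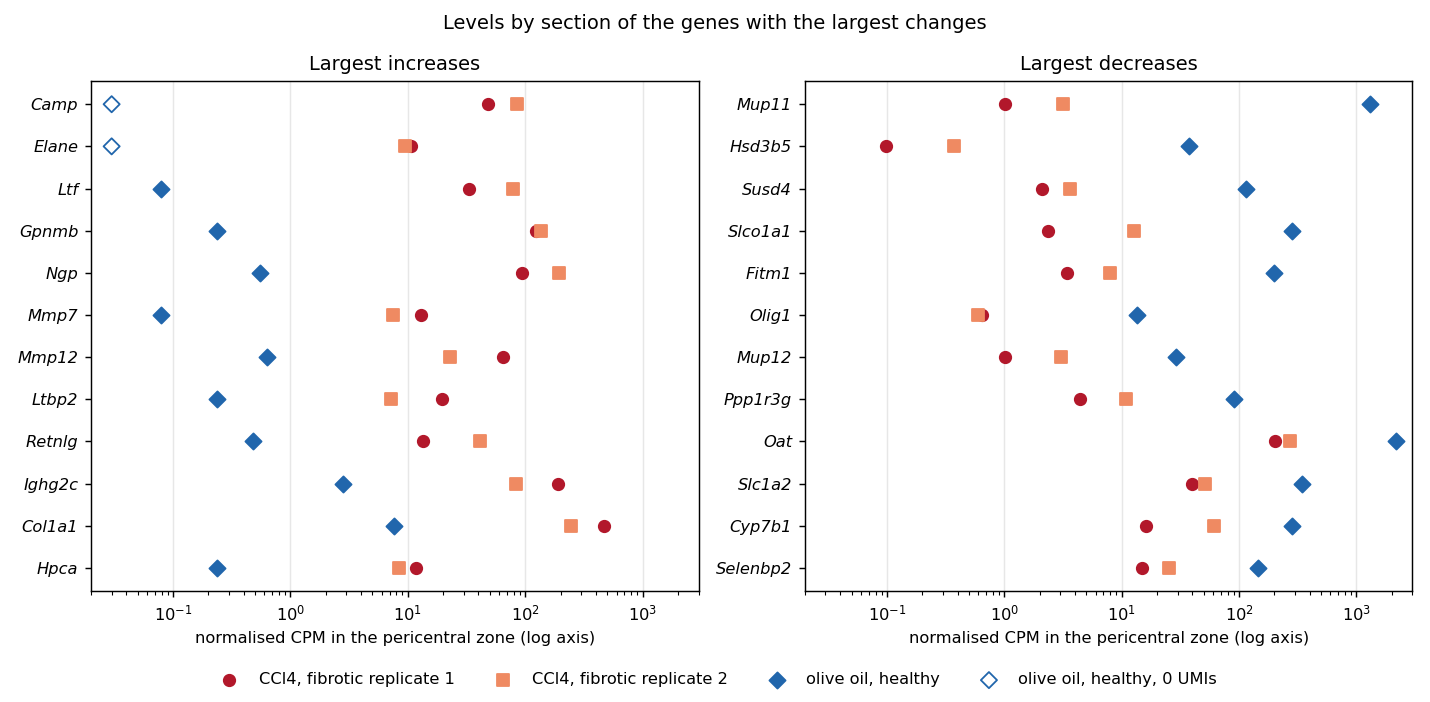
Normalised CPM in the pericentral zone (log axis) of the 12 largest increases and the 12 largest decreases, 1 point per section. Open diamonds mark healthy levels of 0 UMIs, and by the naming rule the healthy point lies outside both fibrotic points in every row.

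The largest decreases were genes of hepatocytes, several of them male-biased in mouse liver. Mup11, a major urinary protein, fell to 1.01 and 3.14 normalised CPM in the fibrotic sections, against 1302 in the healthy section, a log2 change of -9.42 ± 0.45 (adjusted p = 2.4e-12). Hsd3b5, a male-biased steroid dehydrogenase, was at 0.0975 and 0.374 against 37.8, a change of -7.59 ± 0.34. Mup12 was at 1.01 and 3.06 against 29.3 (-3.98 ± 0.34). Major urinary protein genes are near-identical copies, so reads may have been split among them. Slco1a1, a male-biased uptake transporter of organic anions and bile acids, was at 2.37 and 12.8 against 280 (-5.29 ± 0.46), and Cyp7b1, an oxysterol hydroxylase of bile acid synthesis, at 16.0 and 60.9 against 285 (-2.88 ± 0.39). In fibrotic replicate 2, which has Y-linked transcripts, these genes were also far below the healthy section. DESeq2 did not call Cyp7b1.

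Other genes among the largest decreases included Susd4, a complement regulator, at 2.11 and 3.66 normalised CPM in the fibrotic sections against 115 in the healthy one (-5.36 ± 0.24). Fitm1, a lipid droplet protein, was at 3.44 and 7.92 against 199 (-5.18 ± 0.29), and its decrease was larger pericentrally, with a zone term of -1.05 ± 0.18. Ppp1r3g, a subunit that directs phosphatase to glycogen, was at 4.39 and 10.98 against 90.6 (-3.60 ± 0.29), with a zone term of -0.78 ± 0.14. Olig1 (a transcription factor gene) was at 0.650 and 0.598 against 13.4 (-4.36 ± 0.35), and Selenbp2, a selenium-binding protein, at 14.9 and 25.5 against 146 (-2.84 ± 0.23). All 12 named decreases were called in the periportal zone as well.

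Pericentral landmarks moved both ways. Oat, ornithine aminotransferase, which works with ammonia capture, was at 200.5 and 274 normalised CPM in the fibrotic sections, against 2154 in the healthy section, a log2 change of -3.15 ± 0.33 (adjusted p = 3.7e-07). Slc1a2, a glutamate transporter, was at 39.9 and 51.6 against 345 (-2.89 ± 0.23). Slc22a3 (an organic cation transporter) was at 0.162 and 0.224 against 8.02 (-5.37 ± 0.52), and Lhpp (a phosphatase) at 14.6 and 14.4 against 74.9 (-2.33 ± 0.18). In none of these 4 did the sections overlap. Axin2, a feedback inhibitor of Wnt signalling, was at 32.3 and 25.6 against 12.5 and rose by 1.25 ± 0.21, and the ammonia transporter Rhbg was at 17.6 and 14.6 against 8.10 and rose by 1.03 ± 0.23, a call that DESeq2 did not make. Cyp1a2 was at 958 and 801 against 1526 (-0.76 ± 0.34, adjusted p = 0.105, edgeR), and Lgr5, a Wnt co-receptor for R-spondins, at 0.552 and 1.64 against 1.35 (-0.38 ± 0.75, adjusted p = 0.756, edgeR). In the replacement fit and with DESeq2, Cyp1a2 was called lower (-1.25 and -0.77). Lgr5 rests on 17, 22 and 17 UMIs.

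Of 23 tested pericentral landmarks, 3 rose, close to the 16.0% of all genes, and 6 fell. Their median was -0.19 against 0.01 for all genes. Rnf43, an inhibitor of Wnt receptors, was the third gene that rose, and Car3 and Cyp27a1 completed those that fell; genes named here to spell out a short count were chosen after their values were seen. The replacement fit had 4 higher and 7 lower. With the healthy section's score limit in every section the median was 0.19, and with equal weight per spot it was 0.13, below the 0.33 of all genes. Of the 24 landmarks listed, 14 matched a RefSeq promoter, and 3 of these (Lect2, Slc1a2 and Sp5) held CTTTGAT, letters known from TCF/LEF sites that answer to Wnt, in at least 1 window, against 4.29% of all genes of the table. The window of Slc1a2 (chr2:102706188-102706487, plus strand, GRCm38.p6) is shown because the gene fell while Axin2 rose. Its match lies 207 bases before the start and reads ATCAAAG, the motif on the opposite strand, in capitals.
Slc1a2: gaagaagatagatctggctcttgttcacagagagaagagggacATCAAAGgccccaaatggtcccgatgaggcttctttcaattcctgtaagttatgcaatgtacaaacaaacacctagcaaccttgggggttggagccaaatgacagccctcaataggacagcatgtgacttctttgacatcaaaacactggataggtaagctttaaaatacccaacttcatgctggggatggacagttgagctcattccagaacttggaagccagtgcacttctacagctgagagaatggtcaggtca

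Of 23 periportal landmarks tested in the pericentral zone, 5 rose and 3 fell, in the replacement fit too, which is close to the shares of all genes (16.0% and 9.53%). Their median was -0.27 with a mean of 0.08. With equal weight per spot the median was 0.01, below the 0.33 of all genes. Apoa4, an apolipoprotein, was at 414 and 604 normalised CPM in the fibrotic sections, against 58.0 in the healthy section (3.17 ± 0.35), and Aldh1b1, a mitochondrial aldehyde dehydrogenase, at 64.6 and 58.0 against 13.02 (2.27 ± 0.23). Cdh1 (E-cadherin, a periportal adhesion protein) was at 22.7 and 22.2 against 5.64, a change of 2.03 ± 0.22, while its periportal levels were 33.5 and 38.0 against 30.6 (0.24 ± 0.19, adjusted p = 0.578, edgeR). The zone term of Cdh1 was 1.79 ± 0.19 (adjusted p = 1.2e-05, edgeR), so its difference between these zones was smaller after CCl4. The fibrotic pericentral zones also reach down to scores of 2.19 and 2.50, against 4.35 in the healthy section. The part of these lower scores in the Cdh1 term was not tested. Cyp8b1, the sterol hydroxylase that sets cholic acid synthesis, was at 0.780 and 0.374 against 4.21 (-2.72 ± 0.57). It was the 1 periportal landmark that was higher pericentrally than periportally in fibrotic replicate 1 and in the healthy section (log2 ratios 0.29 and 0.19). Ctsc and Cyp17a1 completed the genes that rose, and G6pc and Slc7a2 those that fell.

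Hepatocyte metabolism was lower in most of its lists. Of 31 genes of bile acid synthesis and organic ion transport, 16 fell and 3 rose (Abcb1a, Abcc4 and Slc22a7), with a median of -0.76. The replacement fit gave the same counts, whereas DESeq2 called 14 lower and 0 higher. Their change was more negative pericentrally for 16 and more positive for 1. Of 42 lipid synthesis and oxidation genes 16 fell and 0 rose, with a median of -0.57, and 14 fell in the replacement fit. Acacb, an acetyl-CoA carboxylase that restrains fat oxidation, was at 37.5 and 34.3 normalised CPM in the fibrotic sections against 118 in the healthy section (-1.68 ± 0.19). Vnn1, a pantetheinase, was at 33.0 and 31.8 against 101 (-1.61 ± 0.19), and Fabp1, the liver fatty acid carrier, at 254 and 307 against 871 (-1.60 ± 0.28). Fasn, fatty acid synthase, was at 140 and 188 against 424 (-1.34 ± 0.26). Vnn1 did not pass in the periportal zone (-0.24 ± 0.19, adjusted p = 0.586, edgeR) and had a zone term of -1.40 ± 0.11, whereas the decrease of Fasn was called in both zones and its zone term was 0.30 ± 0.11 (adjusted p = 0.0625, edgeR).

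In the cytochrome P450 list, without the gene used for the score, 11 of 33 fell and 4 rose (Cyp17a1, Cyp2c55, Cyp39a1 and Cyp3a59), with a median of -0.44. The 4 that rose were near the background share of 16.0%. The replacement fit had 13 lower and 2 higher. Cyp2u1, a fatty acid hydroxylase, was at 6.99 and 6.50 normalised CPM in the fibrotic sections against 29.5 in the healthy section (-2.09 ± 0.20), and Cyp4a14, a PPAR-alpha target, at 63.4 and 51.2 against 184 (-1.65 ± 0.21). The zone term was negative for 18 P450 genes and positive for 3, against 12 and 4 in the replacement fit. Among all genes 10.9% had a negative and 8.89% a positive term, so the 3 positive ones were close to the background. Of 33 glutathione and antioxidant genes, 9 fell and 3 rose, with a median of -0.33 but a mean of 0.08, and the replacement fit had 9 lower and 2 higher. With equal weight per spot 8 were higher and 5 lower, with a median of 0.11. That setting had 2709 higher and 275 lower among all 12887 genes, with a median of 0.33, above that of the list. Gstt3, a glutathione transferase, was at 22.9 and 24.1 against 65.3 (-1.44 ± 0.18), and its zone term was -1.55 ± 0.11. The glutathione transferase Gstm3 went the other way, at 617 and 803 against 150 (2.27 ± 0.34), as did the metal-binding Mt2, at 463 and 439 against 180 (1.35 ± 0.29). Mt2 was not called in the replacement fit (2.85), where the Hk2-deleted section had 2126 normalised CPM.

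Of 33 nitrogen metabolism genes, 9 fell and 2 rose, with a median of -0.57, and the replacement fit had 12 lower and 3 higher. A called negative zone term was found for 22 of them and a positive one for 0. In the periportal zone 2 fell and 1 rose, the latter close to the 3.05% of all genes there. Got1, a transaminase, was at 84.1 and 179 normalised CPM in the fibrotic sections against 404 in the healthy section (-1.59 ± 0.31), a call that DESeq2 did not make, with a zone term of -1.04 ± 0.09. Slc1a4, a neutral amino acid transporter, was at 15.3 and 13.9 against 5.32 (1.49 ± 0.25). The summed level of the list was 9757 and 11447 in the fibrotic pericentral zones against 22136 in the healthy one, while the periportal sums were 16331 and 21109 against 22579. This total is weighted by the most abundant members. Of 34 major urinary protein and sex-biased genes, 13 fell and 7 rose, the latter close to the 16.0% of all genes. Their median was -0.32, and the replacement fit had 13 lower and 2 higher. Elovl3, a fatty acid elongase with male-biased expression, was at 0.0325 and 0.299 against 8.42 (-6.03 ± 0.61). Sult2a2, a sulfotransferase higher in female livers, stood at 2.47 in fibrotic replicate 1 and 0.822 in fibrotic replicate 2, with 0 UMIs in the healthy section (at least 6.91-fold higher).

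Genes of glucose handling moved both ways. Hk2, hexokinase 2, which traps glucose for glycolysis, stood at 4.48 (exact Poisson 95% interval 3.77 to 5.30) and 5.23 (4.08 to 6.61) normalised CPM in the fibrotic sections, against 1.59 (0.9700 to 2.45) in the healthy section. Both fibrotic sections lay above the healthy one, and the log2 change was 1.63 ± 0.41 (adjusted p = 0.00556, edgeR). In the periportal zone Hk2 was at 3.84 and 3.16 against 2.93 (0.28 ± 0.39, adjusted p = 0.782, edgeR), and its zone term was 1.30 ± 0.43 (adjusted p = 0.0413, edgeR). These levels rest on 138, 70 and 20 UMIs. The pericentral call was not made by DESeq2 (1.63) or with the healthy section's score limit (1.89). Slc16a3, a lactate exporter, was at 3.44 and 2.54 against 0.476 (2.69 ± 0.62). Gapdh had only 18 and 13 UMIs in the fibrotic sections, against 0 in the healthy one, and its call was lost under 6 alternatives. Of 34 glycolysis and glucose genes, 7 rose (the others being Hk1, Hk3, Pfkp and Pkm), close to the 16.0% of all genes, and 10 fell. Their median was -0.28, or 0.12 with equal weight per spot, which is below the 0.33 of all genes under that setting. The replacement fit had 6 higher and 9 lower. The members that fell include liver glycogen synthase (Gys2).

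**Figure D3:**
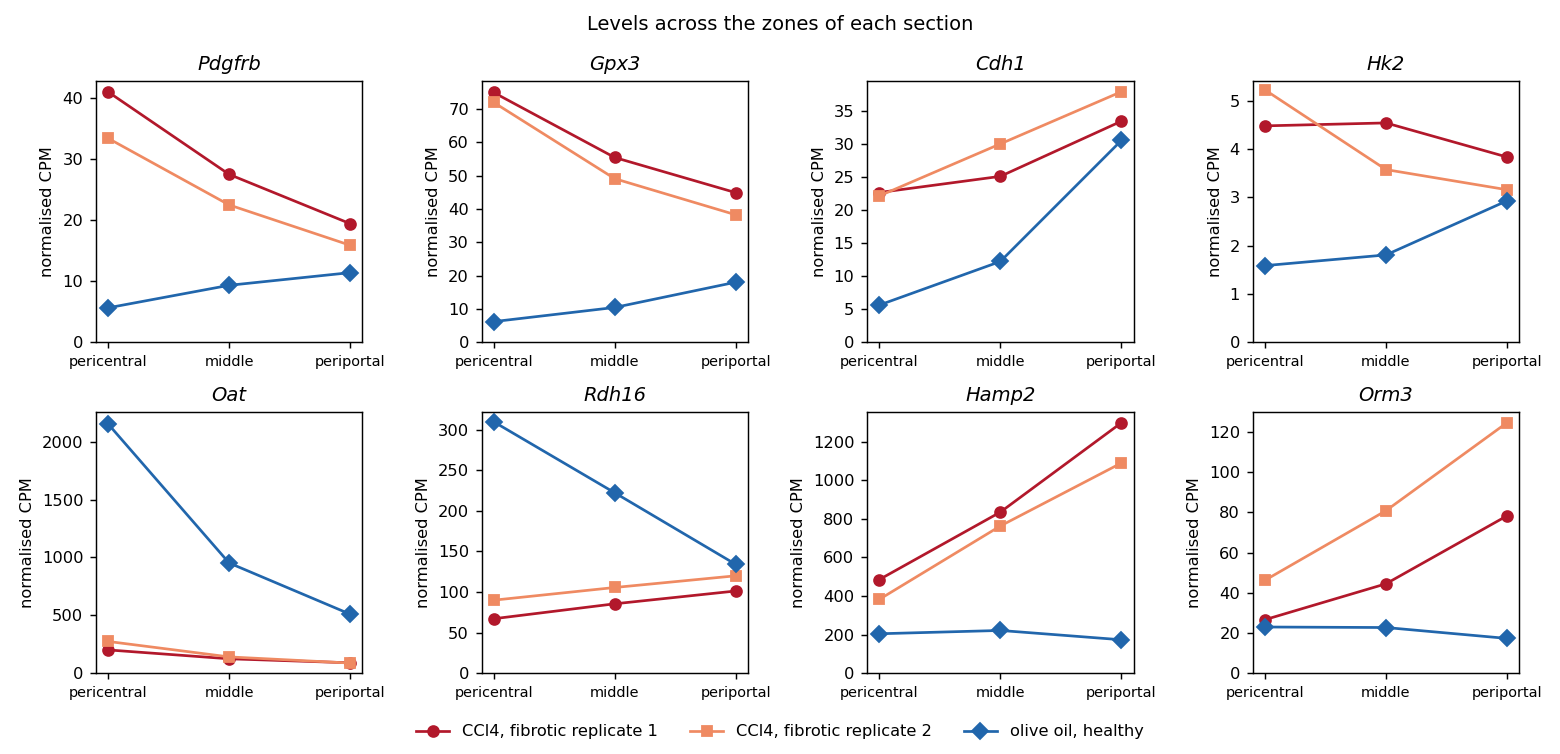
Normalised CPM of 8 genes in the pericentral, middle and periportal zones of fibrotic replicate 1, fibrotic replicate 2 and the healthy section, 1 line per section and axes from 0. Pdgfrb and Gpx3 peak pericentrally after CCl4 but periportally in the healthy section, Rdh16 falls mainly at the pericentral end (67.0 and 89.8 against 310), and Hamp2 and Orm3 rise most at the periportal end.

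Matrix genes rose almost throughout the list. Of 49 tested, 44 rose and 0 fell, with a median of 2.39, and 40 rose in the replacement fit. In the periportal zone 27 rose and 1 fell. The zone term was positive for 39 and negative for 0. Col1a2, the other chain of type I collagen, was at 451 and 209 normalised CPM in the fibrotic sections against 13.7 in the healthy section (4.63 ± 0.43). Timp1, an inhibitor of matrix proteases, was at 1.59 and 0.822 against 0.0794 (1 UMI), a ratio of 17.1 (2.96 to 687, adjusted p = 0.0214, edgeR), and lost its call under 6 alternatives, among them the replacement fit and the fit without collagen-high spots. Without collagen-high spots 41 matrix genes rose and 0 fell.

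Of 30 stellate and contractile genes, 18 rose and 0 fell, in the replacement fit too, and the median was 0.92. Pdgfrb, the receptor for platelet-derived growth factor on stellate cells and pericytes, was at 41.0 and 33.4 normalised CPM in the fibrotic sections against 5.64 in the healthy section (2.76 ± 0.23, adjusted p = 1.9e-08). Periportally it was at 19.4 and 15.9 against 11.4 (0.65 ± 0.23, adjusted p = 0.114, edgeR), and its zone term was 2.09 ± 0.19. Pdgfra, its partner on fibroblasts, was at 43.5 and 37.7 against 7.15 (2.54 ± 0.22). S100a6, a calcium-binding protein, was at 71.2 and 78.7 against 10.5 (2.87 ± 0.24), and Vim (vimentin) at 197 and 132 against 34.5 (2.28 ± 0.28). Acta2, the contractile actin of myofibroblasts and vessel walls, was at 5.88 and 2.99 against 2.94 (0.67 ± 0.41, adjusted p = 0.245, edgeR), so fibrotic replicate 2 barely exceeded the healthy section. The summed level of the list was 1856 and 1857 in the fibrotic sections against 909 in the healthy one.

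Macrophage genes rose with the matrix. Of 27 lipid-associated and recruited macrophage genes, 21 rose and 0 fell, in the replacement fit too, with a median of 1.75 and 12 higher in the periportal zone. Trem2, a lipid-sensing receptor, was at 39.3 and 26.8 normalised CPM in the fibrotic sections against 1.59 in the healthy section (4.42 ± 0.31), and Cd63, a lysosomal and vesicle tetraspanin, at 19.2 and 21.7 against 0.953 (4.44 ± 0.32). The summed level of this list was 11345 and 11523 in the fibrotic sections against 15400 in the healthy one, and it includes Apoe, which hepatocytes also express. Of 17 Kupffer cell genes, 11 rose and 2 fell, with a median of 0.72, and the replacement fit had 9 higher and 1 lower. Changes were positive for 13 of the 17 and ran from -1.23 to 4.00, and the members named next all rose. Cd207 (langerin) was at 34.9 and 24.4 against 1.91 (4.00 ± 0.29), and C1qb, a complement subunit, at 291 and 263 against 104 (1.44 ± 0.27). Marco, a scavenger receptor of periportal Kupffer cells, was at 56.9 and 28.8 against 15.7 (1.49 ± 0.29), rose more in the periportal zone (zone term -0.67 ± 0.14) and was not called by DESeq2. Axl, a receptor for dying cells, was at 152 and 118 against 45.5 (1.60 ± 0.25).

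Of 18 neutrophil genes, 16 rose and 0 fell, with a median of 5.60, or 5.11 with the 5 genes that had no healthy UMIs set at their lower bound. The replacement fit had 14 higher. The periportal zone also had 14 higher, of 17, and 4 genes had a positive zone term (2 in the replacement fit). Mpo, myeloperoxidase, was at 8.19 and 6.73 normalised CPM in the fibrotic sections with 0 healthy UMIs, at least 31.3-fold higher. Summed over the list, levels were 821 and 1854 in the fibrotic sections against 62.5 in the healthy one, so fibrotic replicate 2 was the higher. Of 29 lymphocyte and plasma cell genes, 17 rose and 2 fell, with a median of 1.34, and the replacement fit had 15 higher and 1 lower. Periportally 3 rose. Ighg2b, an immunoglobulin chain, was at 161 and 64.9 against 7.70 (3.91 ± 0.41), the light chain Iglc1 at 54.3 and 81.6 against 13.02 (2.41 ± 0.26), and Cd52, a leukocyte surface protein, at 149 and 118 against 33.1 (2.04 ± 0.25). Immunoglobulin chains are near-identical families, and reads may have been split among them. Ighg3 was at 5.46 and 1.42 against 10.2 and fell (-1.43 ± 0.41), with a zone term of -3.58 ± 0.52 that turned to 0.39 under the landmark score.

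Markers of further cell types moved less uniformly. Of 33 endothelial genes, 5 rose and 1 fell, in the replacement fit too, near the background, with a median of 0.25. Cd34, a vascular and progenitor surface protein, was at 19.2 and 11.7 normalised CPM in the fibrotic sections against 1.27 in the healthy section (3.65 ± 0.37), and Lyve1, a hyaluronan receptor, at 4.16 and 5.68 against 0.635 (2.95 ± 0.51). Ackr3, a chemokine-scavenging receptor, was at 4.39 and 3.06 against 1.11 (1.79 ± 0.49) and was not called by DESeq2, while Ehd3, of sinusoidal endothelium, was at 110 and 128 against 216 (-0.83 ± 0.23). Of 16 cholangiocyte and ductular genes, 10 rose and 1 fell, with a median of 2.62, against 6 and 0 in the replacement fit. Prom1, a progenitor and duct marker, was at 9.29 and 4.71 against 0.397 (4.18 ± 0.55), and Cd24a at 11.8 and 13.8 against 1.51 (3.10 ± 0.33). Krt19 (keratin of duct cells) was at 4.68 and 1.42 against 0.397 (3.02 ± 0.75), from 144, 19 and 5 UMIs, and together with Cldn4 lost its call in the replacement fit. Of 10 mesothelial genes 2 rose, in the replacement fit too and near the 16.0% of all genes, Slpi (73.4 and 20.8 against 4.29, 3.51 ± 0.50, not called by DESeq2) and Wt1 (6.40 and 4.71 against 0.794, 2.85 ± 0.46). Of 7 tested genes of blood and other tissue 2 rose, Pf4 (20.2 and 20.5 against 7.62) and Hbb-bt (37.5 and 28.6 against 16.4), and Hbb-bt was not called in the replacement fit. The part these cells play in the hepatocyte decreases was not tested.

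Cell cycle genes rose. Of 28 tested, 21 rose and 0 fell, with a median of 2.14, or 1.95 with 1 gene at its lower bound, and 20 rose in the replacement fit. DESeq2 called 12 of them, and 8 rose in the periportal zone, with 1 positive zone term (6 in the replacement fit). The 1 positive term is below the 8.89% share of all genes. Plk1, a mitotic kinase, was at 2.37 and 2.24 normalised CPM in the fibrotic sections against 0.159 in the healthy section (2 UMIs), a ratio of 14.7 (3.96 to 123), and Bub1b, of the spindle checkpoint, at 3.31 and 2.99 against 0.238 (3 UMIs), a ratio of 13.5 (4.53 to 66.2). Of 28 p53 targets, 11 rose and 1 fell (Trp53inp1), with a median of 0.37; the replacement fit had 9 higher and 1 lower, and DESeq2 called 3 higher. Cdkn1a, the p21 inhibitor of cell cycle kinases, was at 19.3 and 12.5 against 1.51 (3.44 ± 0.35), with a zone term of 1.72 ± 0.35, and Phlda3, an Akt inhibitor, at 14.3 and 10.1 against 1.99 (2.66 ± 0.33). Some p53 targets that rose, such as Ckap2, Gtse1 and Psrc1, are also known for roles in mitosis. Psrc1 (2 healthy UMIs) and Eda2r (3 healthy UMIs) were not called by DESeq2, and Psrc1 was not called in the replacement fit.

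Of 26 integrated and unfolded protein stress genes, 12 fell and 5 rose, the latter close to the 16.0% of all genes. Their median was -0.53, and the replacement fit had 11 lower and 4 higher. The members that fell include the endoplasmic reticulum chaperones Hspa5, Calr, Pdia4 and Sdf2l1, and those that rose were Atf3, Ddit3, Nupr1, Phgdh and Psat1. Atf3, a stress transcription factor, was at 18.9 and 29.8 normalised CPM in the fibrotic sections against 6.99 in the healthy section (1.82 ± 0.25), and Nupr1, a stress coregulator, at 17.0 and 11.96 against 3.49 (2.09 ± 0.29). Chac1, which degrades glutathione, was at 2.27 and 4.18 against 15.7 (-2.32 ± 0.30). Phgdh had 1 healthy UMI and was not called by DESeq2. Of 32 acute phase and complement genes, 5 rose, close to the background, and 5 fell, with a median of -0.11 but a mean of 0.05. The replacement fit had 4 higher and only 1 lower, with a median of 0.35. Equal weight per spot gave 8 higher and 4 lower, with a median of 0.21, below the 0.33 of all genes. Of its genes 16 had a negative and 3 a positive zone term, against 10 and 3 in the replacement fit. The 3 positive terms were close to the 8.89% share of all genes. The siderophore-binding Lcn2 was at 107 and 254 against 10.3 (4.16 ± 0.42). Orm2, an acid glycoprotein, was at 104 and 320 against 56.1 (1.95 ± 0.42), and the protease inhibitor Serpina3k at 2181 and 3692 against 9580 (-1.67 ± 0.47); DESeq2 called neither. Il1rn, the interleukin 1 receptor antagonist, was at 37.9 and 23.9 against 9.77 (1.71 ± 0.25). Of 35 extracellular vesicle genes, 7 rose and 2 fell (Hgs and Sdc4), in the replacement fit too, close to the background. The largest increase among them was that of Cd63 (4.44), which is also in the macrophage list. Their median was -0.09 but their mean 0.32. With equal weight per spot the median was 0.25, below the 0.33 of all genes. Tspan8, a tetraspanin of vesicles, was at 7.34 and 4.86 against 0.873 (2.85 ± 0.45), while Rab27b (1.57) and Smpd3 (2 healthy UMIs) were not called by DESeq2 or without collagen-high spots. Among the 4 lists of matrix, stellate, neutrophil and cell cycle genes, edgeR and DESeq2 called 0 members lower, and 0 were lower at an unadjusted p under 0.05. The macrophage list had 1 lower at that level, called by DESeq2, and the lipid list had 1 higher, not called by DESeq2. Of 4 Y-linked genes, 0 were called by edgeR or DESeq2 and 0 passed at an unadjusted p under 0.05, but edgeR without the filter on low counts called all 4 lower.

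**Figure D4:**
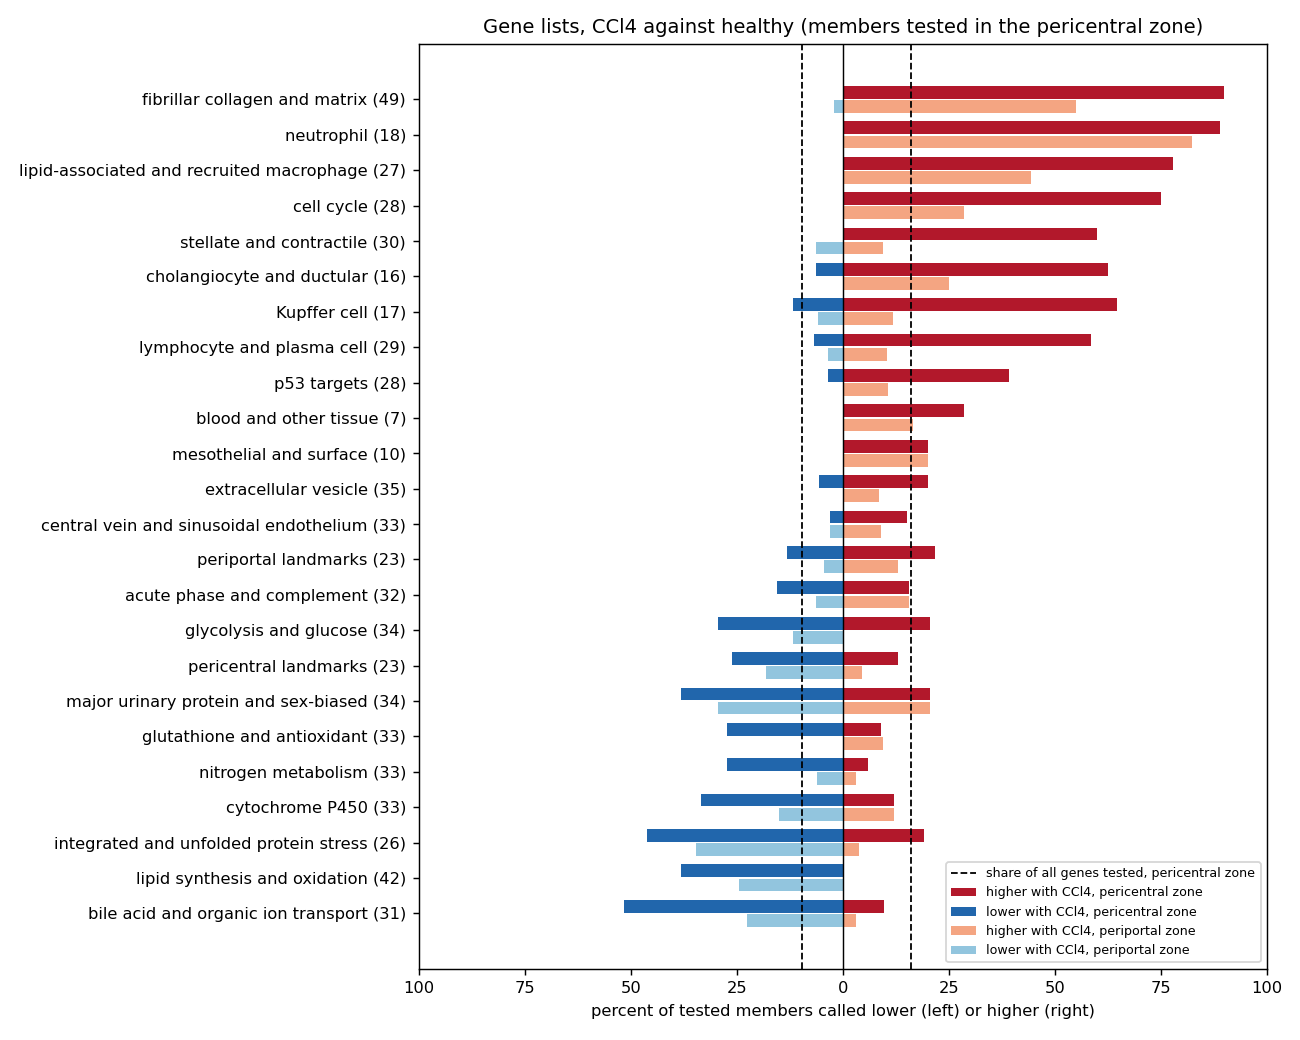
Percent of tested members of 24 gene lists called higher (right) or lower (left) with CCl4, in the pericentral zone and the periportal zone, with the number tested pericentrally in parentheses. Dashed lines give the share of all genes called pericentrally, 16.0% higher and 9.53% lower, and the matrix, neutrophil, macrophage and cell cycle bars reach farthest to the right.

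Of the 8 genes with the most positive zone terms, 6 were also called higher periportally, and Dpep1 and Tgfb3 were not. Dpep1, a membrane dipeptidase, was at 15.0 and 10.6 normalised CPM in the fibrotic pericentral zones against 0.873 in the healthy one, while its periportal levels were 10.9 and 7.79 against 5.59, and its term was 3.12 ± 0.36 (adjusted p = 2.7e-05). Adam8, a protease of leukocytes, was at 13.1 and 14.3 against 0.476 pericentrally and 4.57 and 5.86 against 1.52 periportally, a term of 3.07 ± 0.54. Gpx3, a secreted glutathione peroxidase, was at 74.9 and 72.0 against 6.19 pericentrally and 44.9 and 38.2 against 18.0 periportally, a term of 2.36 ± 0.17. In the healthy section these 3 genes were lower pericentrally than periportally, and in both fibrotic sections they were higher pericentrally. Tgfb3, a ligand that drives matrix production, was at 14.5 and 7.02 against 1.51 pericentrally, and periportally it did not pass (0.54 ± 0.36, adjusted p = 0.485, edgeR), with a term of 2.34 ± 0.34. Capn6 (a calpain-like protein), Adamts12 (a matrix protease), Plagl1 (a growth-related transcription factor) and Mfap2 (a microfibril protein) had terms of 2.50, 2.49, 2.37 and 2.32, with fibrotic levels above the healthy one in both zones. The term of Mfap2 lost its call at 5000 UMIs per spot (2.01) and with the landmark score (1.61).

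The most negative zone terms followed other patterns. Rdh16, a retinol dehydrogenase of pericentral hepatocytes, was at 67.0 and 89.8 normalised CPM in the fibrotic pericentral zones against 310 in the healthy one (-1.95 ± 0.24), but at 101 and 120 against 134 periportally, a term of -1.72 ± 0.10. Tlr5, the flagellin receptor, was at 3.90 and 5.16 against 18.3 pericentrally and 4.46 and 5.32 against 6.19 periportally, a term of -1.69 ± 0.24. For Hamp2, a hepcidin gene, pericentral levels of 485 and 382 against 204 stood beside periportal levels of 1297 and 1089 against 173, a term of -1.70 ± 0.09. Orm3, an acid glycoprotein, showed the same form, with 26.6 and 46.2 against 22.9 pericentrally and 78.3 and 125 against 17.3 periportally (-1.91 ± 0.14). For Hamp2 and Orm3 both fibrotic sections thus lay above the healthy one in each zone, with the larger difference periportally. The pericentral level of Orm3 in fibrotic replicate 1 was only slightly above the healthy one (26.6 against 22.9). Rdh16 and Tlr5 fell pericentrally and did not pass periportally (adjusted p = 0.617 and 0.644, edgeR). Cyp2b13, Cyp2a4 and Slc22a26 were high in fibrotic replicate 1, the section without Y-linked transcripts. Cyp2b13, female-biased in mouse liver, had 667 UMIs there in the pericentral zone, against 1 in fibrotic replicate 2 and 24 in the healthy section, and its term was -2.74 ± 0.45, or -3.33 without that section. The terms of Cyp2a4 and Slc22a26 were -1.81 and -2.02, and -0.29 and -1.37 without fibrotic replicate 1; DESeq2 called neither.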

How the data were processed

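The deposited UMI counts per gene and spot came from Space Ranger 2.0.0, per the file headers, and the build mm10 is named in the submitters' processing notes. The tables, whose probe set is not given in the sources used here, held 19465 genes, Xist and Glul not among them. Counts were summed per section and zone and compared with edgeR 4.0.16 in R 4.3.3 (TMM scaling, filterByExpr, quasi-likelihood test, Benjamini-Hochberg adjusted p under 0.05). Spots are not replicates. The fibrotic sections gave the 1 residual degree of freedom. The zone by treatment term was fitted over both outer zones with section as a block. Levels are normalised CPM with TMM factors over 12 libraries, and intervals are exact Poisson at 95%, for counting error only. Folds against 0 UMIs use a floor of 3 counts over the normalised UMI total of the healthy pericentral zone. Chromosomes and promoters come from RefSeq (GRCm38.p6), in which 12737 of the 12887 genes tested matched by symbol. The members and the 25 gene lists were chosen with earlier results of these data known. Lists share members, such as Mmp12 (matrix and macrophage) and Cd63 (macrophage and vesicle), so their counts are not independent. Named genes were the 12 largest changes each way among called genes averaging at least 10 normalised CPM in the higher group with the healthy section outside the fibrotic range, the 8 largest zone terms each way by the like rule, up to 4 called members per list (2 of the highest level where none was called), and a short set that includes Hk2, Pdgfrb, Acta2 and Timp1. Alternatives were RLE scaling, no filter on low counts, DESeq2 1.42.0, limma 3.58.1 with equal weight per spot, 5000 UMIs per spot, a narrower or wider top share of spots by score, the healthy section's score limit, a score of other landmarks, leaving out collagen-high spots, adding or substituting the Hk2-deleted section, and leaving out each fibrotic section. Images were not used here.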

Additional observations from a re-analysis of the deposited data

Results flagged for a closer look

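Each of these results was singled out because a test of the difference itself found that the CCl4 change differed between the pericentral and the periportal zone. In all, 1167 genes had a more positive and 1437 a more negative change pericentrally. Among the named genes the most positive terms (log2) were those of Dpep1 (3.12), Adam8 (3.07), Capn6 (2.5), Adamts12 (2.49), Plagl1 (2.37), Gpx3 (2.36), Tgfb3 (2.34) and Mfap2 (2.32). The most negative were those of Ighg3 (-3.58), Cyp2b13 (-2.74), Slc22a26 (-2.02), Orm3 (-1.91), Cyp2a4 (-1.81), Rdh16 (-1.72), Hamp2 (-1.7) and Tlr5 (-1.69). The collagen-high spots lay in the pericentral zone for 71.4% and 71.7% in the fibrotic sections, against 31.7% in the healthy one, and the part of that difference in the positive terms was not tested. Cyp2b13, Slc22a26 and Cyp2a4 had their highest pericentral levels among the fibrotic sections in replicate 1, which lacks Y-linked transcripts, and its part in those terms was not tested beyond the values without that section. No group had enough sections for a check of single sections that stand far from the rest.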

How the results depend on the processing

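Of 1500 alternative values for 117 named results, 1413 counted as kept, 64 lost a call, 4 gained one, 2 reversed and 17 moved. Kept meant the same direction and side of the threshold, or, without 1 fibrotic section, a shift within the spread of the 2 such fits. The 1413 include 106 such values without fibrotic replicate 1 and 111 without fibrotic replicate 2. They were judged against a spread of the same 2 values, so they do not test stability. With DESeq2 the pericentral counts were 1020 higher and 530 lower, and the zone term gave 189 positive and 281 negative, with 6621 adjusted p-values not given by that tool. The healthy section's score limit gave 941 and 307, the landmark score 643 lower, and equal weight per spot 275 lower; the cause was not tested, although the score limit also leaves fewer spots. Lgr5 reversed with equal weight (0.0401), and the zone term of Ighg3 with the landmark score (0.39). DESeq2 called fewer higher members for pericentral landmarks (1), the endothelial (2), stress (2), sex-biased (3), acute phase (3), vesicle (4) and glucose (4) lists. Calls of Bub1b, Ehd3, Hbb-bt, Krt19, Marco, Mt2 and Rab27b were also lost with the healthy section's score limit, and those of Krt19, Orm2, Smpd3 and Sult2a2 with the landmark score. No filter on low counts put the median of all genes at 0.15. Leaving out 1 fibrotic section leaves no residual degree of freedom, so those fits gave values and no counts of calls. No paired analysis was possible because the healthy and fibrotic sections share fewer than 2 replicate numbers. Genes with under 4 healthy UMIs are limited by depth, and their size rests on counting intervals.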
